A study of Mus musculus with 12 samples.

Results

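Toll-like receptors and the proteins that work directly with them were followed here as a set of 10 genes, which were the receptors Tlr1, Tlr2, Tlr3, Tlr4, Tlr7, Tlr9 and Tlr13, the co-receptors Cd14 and Ly96, and the adaptor Myd88. The members were taken as every non-control probe of the array whose RefSeq identifier belonged to one of these genes, which gave 11 probes of 55681 on the array and 10 of 20887 named genes. Tlr7 had a pair of probes and each other gene had 1, and the probes of Tlr2 and Myd88 were printed on 10 spots each and that of Tlr4 on 2. Expression was called where, in some comparison, 3 or more of the 4 arrays had the probe well above background for the same condition. By this measure 9 of the 10 genes were expressed, and Tlr4 was not.

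The cells were differentiated neurospheres, which are floating aggregates of neural progenitor cells, here from the telencephalon of C57BL/6 mouse embryos at day 13, allowed to differentiate for 7 days. WT neurospheres were wild-type and untreated. APP_WT neurospheres came from APPswe/PS1dE9 embryos and were untreated. The transgenes of these embryos are directed to neurons of the central nervous system. They encode a mutated amyloid precursor protein, chimeric between mouse and human, and a mutated human presenilin 1. BK_APP neurospheres were APPswe/PS1dE9 cultures given 1 µM bradykinin (BK), a peptide hormone that acts on kinin receptors, on days 0, 3 and 6, and HOE_APP neurospheres were APPswe/PS1dE9 cultures given 1 µM HOE-140, a peptide antagonist of its receptor, on the same days. APP_WT was compared with WT, and BK_APP and HOE_APP each with APP_WT, and every comparison was made on 4 2-color arrays with dye swapping, described as independent biological replicates. The APP_WT versus WT arrays were on 1 slide and the 8 arrays of treated cultures on another, so that slide and comparison cannot be told apart. Every ratio compares both channels of the same array.

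Toll-like receptors are sensors of microbial and damage-derived molecules that are best known in the brain from microglia, the resident macrophages. Tlr1, Tlr2 and Tlr4 sit at the cell surface, where Tlr2 pairs with Tlr1 for lipoproteins and Tlr4 reads lipopolysaccharide with Ly96 (MD-2), while Cd14 hands ligands to both. Tlr3, Tlr7, Tlr9 and Tlr13 work in endosomes on nucleic acids, double-stranded RNA for Tlr3, single-stranded RNA for Tlr7, DNA for Tlr9 and bacterial ribosomal RNA for Tlr13. Myd88 carries the signal of all of them except Tlr3 towards NF-kB and interferon regulatory factors.

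Median spot signals on an array had a median between 59 and 87 in the green (Cy3) and between 80 and 105 in the red (Cy5) channel, and 45.2% to 60.1% of probes were well above background. In the model of APP_WT versus WT 5446 of 29361 expressed probes passed the adjusted threshold of 0.05, or 18.5%, with 3392 higher and 2054 lower in APP_WT. This split depended on the scaling, and centering each array on its median in place of loess gave 2136 higher and 3727 lower. No probe passed in BK_APP versus APP_WT or in HOE_APP versus APP_WT. Markers of neurons (5 of 5 expressed), astrocytes (5 of 5), the oligodendrocyte lineage (7 of 7) and neural progenitors (4 of 4) were all expressed beside those of microglia, so that every value below is that of a mixed culture in which fewer cells of a type and less RNA per cell cannot be told apart.

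Detection separated the members before any ratio was formed. Ly96, Myd88, Tlr9, Tlr13 and the first Tlr7 probe were well above background in both channels of all 12 arrays. Tlr2 was well above background in all 12 APP_WT channels and in all 8 channels of treated cultures, but in 1 of 4 WT channels. Cd14 was above background in all of the same channels of transgenic cultures and in 2 of 4 WT channels, and Tlr3 in 11 of 12 APP_WT channels, all 8 of treated cultures and 2 of 4 WT channels. Tlr1 was near the limit, being above background in 5 of 12 APP_WT channels, 2 of 4 BK_APP, 3 of 4 HOE_APP and 0 of 4 WT channels. Its detection went with the dye, with 9 of 12 Cy5 channels against 1 of 12 Cy3 channels. Tlr4 was above background in 2 of 12 APP_WT, 1 of 4 BK_APP, 1 of 4 HOE_APP and 0 of 4 WT channels. The second Tlr7 probe was so in 1 of 12 APP_WT, 1 of 4 BK_APP, 2 of 4 HOE_APP and 0 of 4 WT channels. The probes of Tlr7 thus disagree on its detection, and which of them reports the gene was not tested. Tlr7 is described from the first probe, on which its count as expressed rests. Tlr4 has values but no test.

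**Figure D1:**
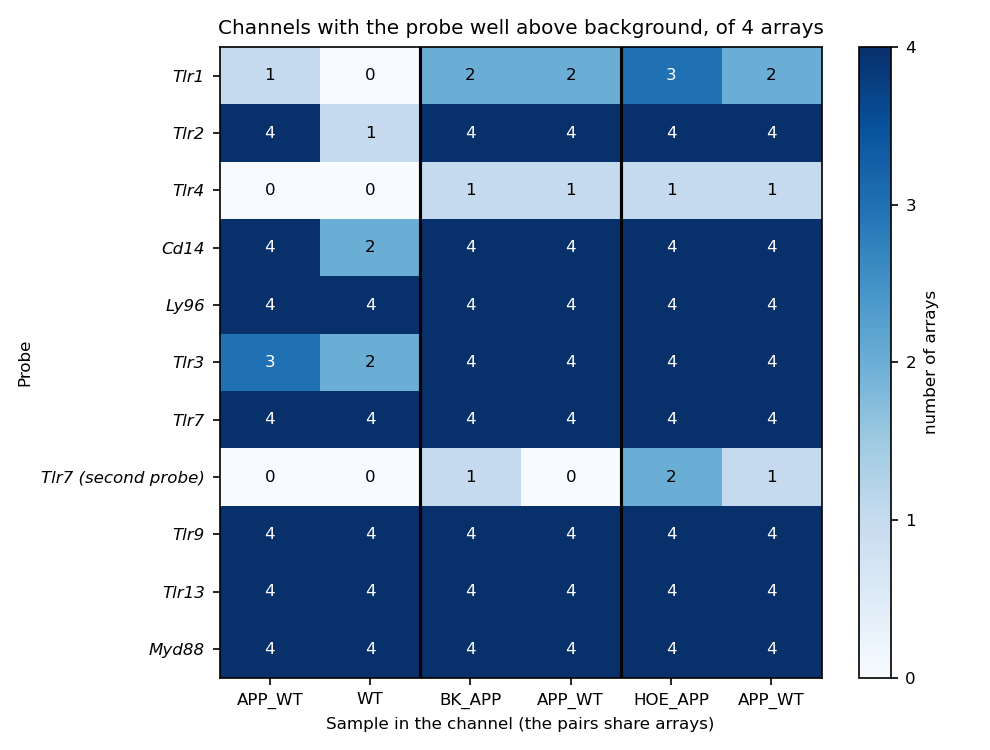
Number of arrays, of 4, on which each probe (vertical axis) passed as well above background for the named sample (horizontal axis), with black lines between the 3 comparisons. Tlr2, Cd14 and Tlr3 lose detection in the WT channel, while Tlr4 and the second Tlr7 probe are at 0 to 2 throughout.

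The first comparison asked how APPswe/PS1dE9 neurospheres differ from WT. Of the 9 tested members 5 were called higher in APP_WT and 0 lower, against 11.6% of all expressed probes called higher. The 5 were Tlr2, Cd14, Ly96, Myd88 and Tlr3. All 10 members had a mean above 0 (51.2% of expressed probes), and 6 were higher on all 4 arrays (15.1% of expressed probes). SAM and rank products, the methods of the study, called 4, without Ly96 (12.1% of probes). The median over the 10 members was 0.25 on the log2 scale, where that of all expressed probes was 0.0039. The increase was unequal, and Tlr2 and Cd14 stood apart from the rest.

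Among surface receptors, Tlr2 had log2 ratios of APP_WT over WT of 2.02, 2.01, 1.86 and 2.18 on arrays 1 to 4. The arrays of both dye orientations were alike, with means of 2.02 each. The fit gave 2.02 ± 0.08 (SE, n = 4), or 4.05-fold, with an adjusted p of 1.29e-07 (limma). The log2 channel level of Tlr2 was 6.50, 6.43, 6.76 and 6.79 in WT and 8.52, 8.44, 8.61 and 8.97 in APP_WT on the same arrays, so the groups did not overlap. Since WT was near background, the size rests on the background correction, and it was 2.87 with plain subtraction and 3.43 in the log ratio of the scanner software. Tlr1, the partner of Tlr2 for triacylated lipoproteins, had ratios of 0.07, 0.35, 0.05 and 0.32. Of its 4 WT channels 0 were well above background, and of its APP_WT channels 1, so no fold is given, and its adjusted p was 0.0744. Tlr4 had ratios of 0.19, 0.18, −0.09 and 0.41 with neither channel above background on any of the 4 arrays.

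Cd14, the co-receptor that binds lipopolysaccharide and passes it on, had ratios of 1.19, 1.098, 0.99 and 1.17. Both dye orientations were alike, with means of 1.14 and 1.08. The fit gave 1.11 ± 0.07 (SE, n = 4), or 2.16-fold, with an adjusted p of 1.76e-06, and WT was well above background on 2 of the 4 arrays. The value was 1.69 with plain background subtraction and 2.01 in the scanner software's log ratio. Ly96 had ratios of 0.17, 1.05, 0.10 and 0.18. Its array 2 stood far above the other arrays, and the 4 ratios had an SD of 0.45. With array 2 included the fit gave 0.37 ± 0.11 (SE, n = 4; adjusted p = 0.0394). Without array 2 the value was 0.15 and the adjusted p 0.199, and leaving out array 3 or 4 also ended the call (adjusted p = 0.105 and 0.136), so the increase of Ly96 rests on 1 array.

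Of the endosomal receptors Tlr3 was called and Tlr7, Tlr9 and Tlr13 were not. Tlr3 had ratios of 0.34, 0.20, 0.16 and 0.53, above 0 on all 4 arrays, and the fit gave 0.31 ± 0.07 (SE, n = 4; adjusted p = 0.0108). On array 2 neither channel was well above background for Tlr3. Tlr13 had ratios of −0.13, −0.24, 0.55 and 0.33, in which the sign followed the dye, with a mean of −0.19 on the arrays with APP_WT in Cy3 and 0.44 on those with APP_WT in Cy5. Its fit of 0.12 had an adjusted p of 0.166. Tlr7 had ratios of −0.21, −0.0065, 0.43 and 0.08 and an adjusted p of 0.558. Its dye orientations were also apart, at −0.11 and 0.26, and its second probe, near background, was apart the other way, at 0.24 and −0.11. Tlr9 had ratios of 0.09, 0.05, 0.24 and −0.14 (fit 0.06, adjusted p = 0.667). The 95% confidence intervals were −0.09 to 0.24 for Tlr7, −0.11 to 0.23 for Tlr9 and −0.0028 to 0.25 for Tlr13. For each gene, a change of any size inside its interval is compatible with the values.

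The adaptor Myd88 had ratios of 0.44, 0.25, 0.25 and 0.46, all above 0 and with close means in the dye orientations (0.35 and 0.36). The fit gave 0.35 ± 0.07 (SE, n = 4), or 1.28-fold, with an adjusted p of 0.00635. Array 4 carried part of both this call and that of Tlr3, since without it Myd88 was at 0.30 with an adjusted p of 0.0517 and Tlr3 at 0.21 with an adjusted p of 0.0794, which left 2 members called. Those 2 were Tlr2 and Cd14, which passed under every alternative in which they were tested.

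**Figure D2:**
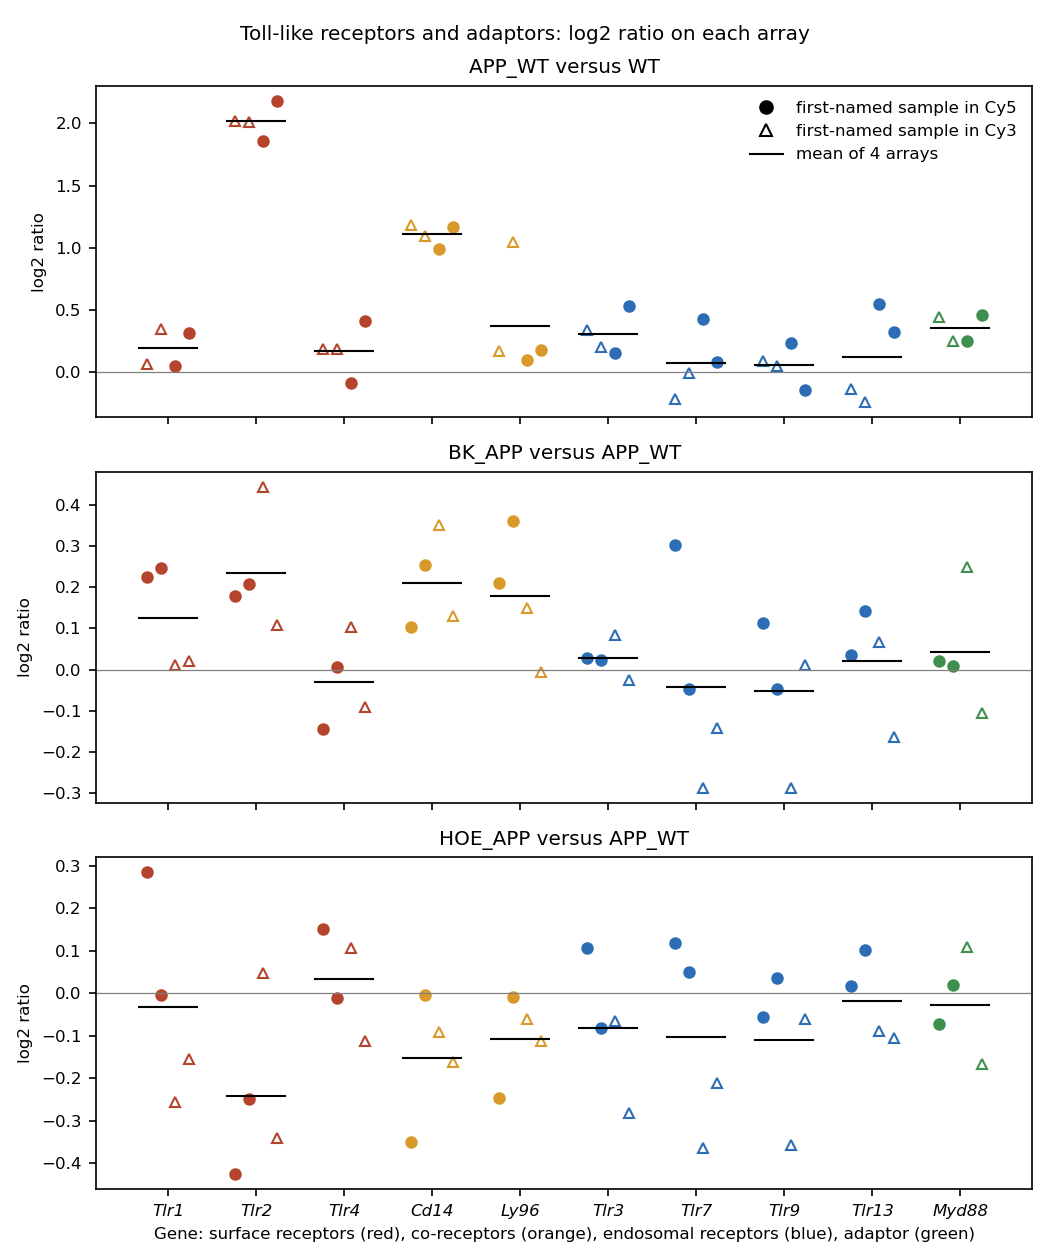
Log2 ratio (vertical axes, scaled separately) of each member on each of the 4 arrays of the 3 comparisons, in the order of arrays 1 to 4 within a gene, with the dye of the first-named sample as the symbol and the mean as a line. Tlr2 and Cd14 lie near 2.02 and 1.11 in APP_WT versus WT, the Ly96 mean rests on 1 array, and most other values lie within 0.5 of 0.

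Promoters of the called receptors and of the adaptor are shown because these genes were called in the same comparison, with that of Tlr9 as a member that did not pass. Sequences of 300 bases, from 250 before to 50 after a start, were found for 6 of the members in RefSeq (build GRCm38.p6), which were Tlr1, Tlr2, Tlr3, Tlr9, Tlr13 and Myd88. They lie at chr3:83841559-83841858 (minus strand) for Tlr2, chr8:45410331-45410630 (minus strand) for Tlr3, chr9:119339969-119340268 (minus strand) for Myd88 and chr9:106222348-106222647 (plus strand) for Tlr9. Each is printed 5′ to 3′ with matches in capitals.
Tlr2: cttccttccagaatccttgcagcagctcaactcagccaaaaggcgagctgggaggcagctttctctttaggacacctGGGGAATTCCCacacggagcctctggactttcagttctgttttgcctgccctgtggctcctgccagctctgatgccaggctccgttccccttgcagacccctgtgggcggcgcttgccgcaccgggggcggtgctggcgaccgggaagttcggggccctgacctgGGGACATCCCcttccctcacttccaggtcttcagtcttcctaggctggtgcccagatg
Tlr3: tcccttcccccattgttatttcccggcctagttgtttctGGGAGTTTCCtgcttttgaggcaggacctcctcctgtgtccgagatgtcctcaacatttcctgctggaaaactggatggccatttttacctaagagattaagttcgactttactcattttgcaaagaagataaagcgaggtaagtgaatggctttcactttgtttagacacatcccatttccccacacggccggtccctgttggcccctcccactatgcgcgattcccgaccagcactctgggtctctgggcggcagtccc
Myd88: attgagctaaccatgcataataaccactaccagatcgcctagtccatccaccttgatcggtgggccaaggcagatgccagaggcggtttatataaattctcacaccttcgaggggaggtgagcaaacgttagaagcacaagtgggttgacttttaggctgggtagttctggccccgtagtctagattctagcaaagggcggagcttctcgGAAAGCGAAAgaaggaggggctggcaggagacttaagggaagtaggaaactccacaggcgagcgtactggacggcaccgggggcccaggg
Tlr9: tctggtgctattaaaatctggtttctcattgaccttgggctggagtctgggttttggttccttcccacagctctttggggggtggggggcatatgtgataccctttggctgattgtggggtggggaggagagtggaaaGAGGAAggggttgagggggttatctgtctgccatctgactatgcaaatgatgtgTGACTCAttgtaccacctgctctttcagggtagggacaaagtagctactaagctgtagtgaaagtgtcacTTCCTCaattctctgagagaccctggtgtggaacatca
Capitals mark matches, on either strand, to the NF-kB motif, the interferon response motif (ISRE, found here as GAAAGCGAAA), the PU.1 core GAGGAA and the AP-1 motif TGANTCA. In the Tlr2 window the NF-kB motif matched 3 times, of which 2 matches overlapped by all but 1 base at the first capitals. The Tlr3 window held it 1 time, and those of Tlr1, Tlr9, Tlr13 and Myd88 did not hold it. Of all 32851 promoter windows 8.46% held the NF-kB motif. Myd88 held the interferon response motif (3.44% of all windows), Tlr9 held the AP-1 motif (7.81%) and 2 PU.1 cores (28.3%), and Tlr13 and 1 of the 2 windows of Tlr1 held 1 PU.1 core each. A match describes the letters only.

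Other genes of the pathway, from a list of 66 genes arranged by role, were set beside the members. Of the 65 with a probe 50 were expressed, of which 24 were called higher and 4 lower in APP_WT versus WT, with a median of 0.18. Of all expressed probes 18.5% were called and 11.6% were called higher, and 2054 of 29361 were called lower. These values are the background for the counts by role. Toll-like receptors outside the set (Tlr5, Tlr6, Tlr8, Tlr11 and Tlr12) were expressed in 0 of 5 cases. Of the other adaptors Ticam1, which serves Tlr3, rose by 0.36 (adjusted p = 0.00102) and Tirap, which bridges Tlr2 and Tlr4 to Myd88, by 0.37 (adjusted p = 0.0331), while Ticam2, Sarm1 and Pik3ap1 were not expressed. Among ligand transfer and accessory genes Ly86 rose by 1.99 and Lbp by 0.75, sizes that rest on a WT channel well above background on 1 of 4 arrays for each, and Hmgb1 was at −0.11 (adjusted p = 0.142).

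The machinery that folds, moves and cuts the endosomal receptors had 6 of 12 genes called higher and 1 lower, with a median of 0.29. It was led by the lysosomal protease Ctss with 2.52 ± 0.09 (SE, n = 4; adjusted p = 5.44e-08), followed by Ctsb (0.96), the receptor chaperone Unc93b1 (0.76), the protease Lgmn (0.63) and Nrros (0.42). Ctss and Unc93b1 were well above background on 1 of the 4 WT arrays, so their sizes rest on the background correction. The ratios of Nrros on the 4 arrays had an SD of 0.51, larger than its fitted value. Slc15a3, an endosomal transporter, was also called higher, from a WT channel that was near background on all 4 arrays. Ap3b1, a subunit of a sorting complex, fell by 0.18 (adjusted p = 0.0266). Thus Unc93b1, Ctss, Ctsb and Lgmn were called higher in a comparison in which 1 of the 4 endosomal receptors was.

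The kinases, ligases and signal carriers between receptor and nucleus were near 0 as a group, with a median of 0.0095 over 17 expressed genes. Traf3 (0.37), Ripk1 (0.33), Ikbke (0.23), Tab1 (0.21) and Irak4 were called higher, while Peli1 (−0.23), Tab3 (−0.22) and Ube2n (−0.15) were called lower. Irak4 was well above background on 1 of 4 arrays in APP_WT and 0 of 4 in WT, so its call rests on values near background. Of 8 expressed transcription factors of the pathway 5 were called higher, Irf8 (0.94), Rela (0.38), Nfkb1 (0.31), Irf5 and Irf7, the last 2 near background in WT on all 4 arrays, and Fos had the lowest value (−0.05, adjusted p = 0.642). Of 8 expressed inhibitors 4 were called higher, with Nfkbia, the inhibitor that holds NF-kB in the cytoplasm, at 1.37 ± 0.08 (SE, n = 4; adjusted p = 1.23e-06), Tnfaip3 at 0.82, Tnip1 at 0.42 and Socs1 at 0.28, and Rnf216 had the lowest value (−0.04, adjusted p = 0.660). The inhibitors Tollip and Sigirr were at −0.0016 and 0.05. Sigirr was well above background on 1 of 4 arrays in APP_WT and 1 of 4 in WT, and the background correction pulls ratios of dim probes towards 0.

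Markers of microglia and macrophages moved in the same comparison. As background for the counts here, 11.6% of all expressed probes were called higher, and 2054 of 29361 were called lower. Of 16 expressed markers of 18 with a probe 15 were called higher in APP_WT, with a median of 1.49, and Aif1 (2.21), Cx3cr1 (2.31) and Fcer1g (2.23) were among them. The sum of the 18 marker levels ranged from 15143 to 19432 in APP_WT and from 10288 to 12421 in WT, so the groups did not overlap. Of the defining markers P2ry12 and Spi1 were above background on 1 of 4 arrays in APP_WT and 0 of 4 in WT, Adgre1 and Laptm5 were so on 4 of 4 in APP_WT and 0 of 4 in WT, and Itgam was at 0.11 (adjusted p = 0.427). Astrocyte markers were called higher in 4 of 5 cases with a median of 0.43. Other types had markers called lower, namely neurons 2 of 5 (Dcx −0.54, Map2 −0.31) and neural progenitors 2 of 4 (Hes5 −0.63, Pax6 −0.16, with Nes called higher at 0.55). So had pericytes and fibroblasts with 2 of 4 (Pdgfrb −0.45, Dcn −0.25) and the oligodendrocyte lineage with 1 of 7 (Olig2 −0.21). The ratios of Dcn on the 4 arrays had an SD of 0.40, larger than the size of its fitted value. Of 4 endothelial markers 1 was called higher. The summed level of the progenitor markers was lower in APP_WT on all 4 arrays, by log2 ratios of −0.35 to −0.23. Monocyte and granulocyte markers were expressed in 2 of 9 cases, with 1 called higher (Camp, 0.20) and sums of 1010 to 1235 in APP_WT and 1015 to 1117 in WT, and dendritic and B cell markers in 1 of 8. The part of these cells in the increase of Tlr2, Cd14 and the other members was not tested.

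The second comparison asked what bradykinin did to the transgenic neurospheres. No member was called by the limma test (0 of 9, with 0% of all expressed probes called and adjusted p from 0.967 to 0.983). At an unadjusted p below 0.05, 2 of 9 were higher and 0 lower, where 2.1% of expressed probes were higher. On the mean, 7 of 10 were above 0 (47.4% of probes). With SAM and rank products 3 of 9 were called against 1.84% of probes. Tlr1, Tlr2 and Cd14 (3 of 10) were higher on all 4 arrays, against 5.06% of expressed probes.

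Tlr2 had log2 ratios of BK_APP over APP_WT of 0.18, 0.21, 0.44 and 0.11, and the fit gave 0.23 with a 95% confidence interval of 0.06 to 0.41 (unadjusted p = 0.0142, adjusted p = 0.967, limma). Cd14 had ratios of 0.10, 0.25, 0.35 and 0.13 (fit 0.21, interval 0.06 to 0.36). Ly96 had ratios of 0.21, 0.36, 0.15 and −0.0051 (fit 0.18, interval −0.07 to 0.42). These were the 3 genes called with SAM and rank products, and in Ly96 array 4 was near 0. Tlr1 was above 0 on all 4 arrays with ratios of 0.22, 0.25, 0.01 and 0.02, of which the arrays with BK_APP in Cy5 held the higher pair, and it was above background in the Cy5 channel of each array and in no Cy3 channel. Tlr4 had ratios of −0.14, 0.0074, 0.10 and −0.09.

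The endosomal receptors and Myd88 were spread around 0 after bradykinin. Tlr3 had ratios of 0.03, 0.02, 0.08 and −0.02, the narrowest spread of any member in this comparison. Tlr7 had ratios of 0.30, −0.05, −0.29 and −0.14, and Tlr9 of 0.11, −0.05, −0.29 and 0.01. Array 3, the lowest array for Tlr7 and Tlr9, was the highest for Tlr2, Cd14 and Myd88. Tlr13 had ratios of 0.04, 0.14, 0.07 and −0.16, and Myd88 of 0.02, 0.0093, 0.25 and −0.11. For these 5 genes the adjusted p lay between 0.973 and 0.983, and the intervals for Tlr3 (−0.12 to 0.18) and Tlr13 (−0.11 to 0.15) were the narrowest.

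The third comparison asked what HOE-140 did. Its direction is likely only, because 1 treatment is named for both channels of these arrays, and the sign was taken from the channel 1 labels, from the titles and from how the BK_APP arrays were laid out. With the sign turned, every value of this comparison below changes its sign. The deposited table of log2 ratios had the sign used here. No member was called by the limma test (0 of 9, with 0% of probes called and adjusted p from 0.924 to 0.986), 2 were lower at an unadjusted p below 0.05 (2.72% of probes), and 1, Tlr2, was called with SAM and rank products (2.31% of probes). Of the 10 members 9, all but Tlr4, had a mean below 0 (49.9% of probes), and 2 were lower on all 4 arrays (4.98% of probes).

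Tlr2 had log2 ratios of HOE_APP over APP_WT of −0.42, −0.25, 0.05 and −0.34, so that array 3 went against the other three. The fit gave −0.24 with an interval of −0.42 to −0.06 (unadjusted p = 0.0124, adjusted p = 0.924, limma), and 0.24 with the sign turned. Cd14 had ratios of −0.35, −0.0038, −0.09 and −0.16, below 0 on all 4 arrays and carried most by array 1 (fit −0.15, interval −0.30 to −0.0026, adjusted p = 0.924). Ly96 was also below 0 on all 4 arrays, with −0.25, −0.0079, −0.06 and −0.11 (fit −0.11, interval −0.35 to 0.14). Tlr1 had ratios of 0.28, −0.0047, −0.26 and −0.15, with a mean of 0.14 on the arrays with HOE_APP in Cy5 and −0.20 on those with it in Cy3, and Tlr4 of 0.15, −0.01, 0.11 and −0.11.

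Of the endosomal receptors after HOE-140, Tlr3 had ratios of 0.11, −0.08, −0.06 and −0.28, and Tlr9 of −0.06, 0.04, −0.36 and −0.06. Tlr7, with 0.12, 0.05, −0.36 and −0.21, and Tlr13, with 0.02, 0.10, −0.09 and −0.11, were above 0 on both arrays with HOE_APP in Cy5 and below 0 on both with HOE_APP in Cy3. The difference followed the dye in Tlr7 in each comparison, with Cy5 arrays above Cy3 arrays by a half-difference of 0.18 in APP_WT versus WT, 0.17 in BK_APP and 0.19 in HOE_APP. Myd88 had ratios of −0.07, 0.02, 0.11 and −0.17 around a fit of −0.03. Microglial markers were called in neither treatment. They had a median of 0.13 in BK_APP versus APP_WT, where 12 of 16 were above 0 (47.4% of expressed probes). In HOE_APP versus APP_WT the median was −0.09, and 16 of 16 were below 0 (49.9% of expressed probes). Of the 48 expressed markers of all cell types, 25 were above 0 and 23 below in BK_APP. In HOE_APP 9 were above 0 and 39 below, with 5 of 5 astrocyte markers below, so the lean was not limited to microglial markers. The summed level of the microglial markers was 16619 to 18581 in BK_APP against 14805 to 18801 in APP_WT on the same arrays. It was 12789 to 16901 in HOE_APP against 14679 to 19203, so that the groups overlapped. Within arrays the log2 ratio of the sums was 0.17, 0.13, −0.12 and −0.09 in BK_APP, with the sign following the dye, and −0.05, −0.00056, −0.23 and −0.20 in HOE_APP, below 0 on all 4 arrays. Their part in the values of Tlr2 and Cd14 was not tested.

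The other pathway genes were not called in either treatment (0 of 50 by limma, with 4 at an unadjusted p below 0.05 in each, and 2 in BK_APP and 1 in HOE_APP with SAM and rank products). At that unadjusted p the 4 in BK_APP were all higher, where 2.1% of expressed probes were higher. The 4 in HOE_APP were all lower, where 2.72% of expressed probes were lower. In BK_APP versus APP_WT 30 had a value above 0 and 20 below, with a median of 0.02, where 47.4% of all expressed probes were above 0 and 1.84% were called with SAM and rank products. The inhibitors Nfkbia (0.26, unadjusted p = 0.00721) and Tnfaip3 (0.24, unadjusted p = 0.00196) had the largest values, both with an adjusted p of 0.967, and Ikbkg, a subunit of the kinase complex that acts on Nfkbia, had the lowest (−0.15). In HOE_APP versus APP_WT 13 were above 0 and 37 below, with a median of −0.03, from −0.20 for Ctsb (adjusted p = 0.924) to 0.08 for Ikbke, where 49.9% of all expressed probes were below 0 and 2.31% were called with SAM and rank products. In the same pair of comparisons Ctss was at 0.18 and −0.16, and Unc93b1 at 0.08 and −0.12. Both comparisons have APP_WT as the reference, so they are not independent of each other.

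Both treatments were given at the same dose and days and were set against the APP_WT group, so the single pair was compared in the same model. BK_APP minus HOE_APP was 0.48 for Tlr2 (95% confidence interval 0.23 to 0.73, unadjusted p = 0.00162), 0.36 for Cd14 (0.15 to 0.57, unadjusted p = 0.00316) and 0.29 for Ly96 (−0.06 to 0.63). This model does not use the replicate numbers, by which the arrays of the treatments are paired, and within pairs 1 to 4 the difference was 0.60, 0.46, 0.40 and 0.45 for Tlr2, 0.45, 0.26, 0.44 and 0.29 for Cd14, and 0.46, 0.37, 0.21 and 0.11 for Ly96. All of these were above 0. Each other member had a pair below 0. The lowest value was −0.06 for Tlr1, −0.08 for Tlr3, −0.30 for Tlr4 and −0.10 for Tlr7. For Tlr9 it was −0.08, for Tlr13 −0.06 and for Myd88 −0.0097. The share of all expressed probes above 0 in every pair was not determined. A replicate block with the same sign in every comparison called no member either (adjusted p = 1.00 when rounded for each). Replicate deviations of APP_WT versus WT correlated negatively with those of both treatments, so this block does not fully account for the pairing. With its sign turned for APP_WT versus WT, chosen after seeing the data, Tlr2 had an unadjusted p of 1.99e-05 (adjusted p = 0.274, limma). Cd14 then had 0.000365 (adjusted p = 0.413), and still no member passed. In the model without a block no probe passed after adjustment over 29361 probes, and the adjusted p of each member was 1.00 when rounded. At an unadjusted p below 0.05, 1.2% of all expressed probes were higher in BK_APP in that model. The difference was 0.16 for Tlr1, 0.11 for Tlr3, 0.07 for Myd88, 0.06 for Tlr7, 0.06 for Tlr9 and 0.04 for Tlr13, each with an interval that held 0. With the HOE_APP ratios given the opposite sign the difference of Tlr2 was −0.0064. The interval of Tlr13 reached from −0.14 to 0.22, so that these p-values do not show that the treatments act alike on the endosomal receptors.

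**Figure D3:**
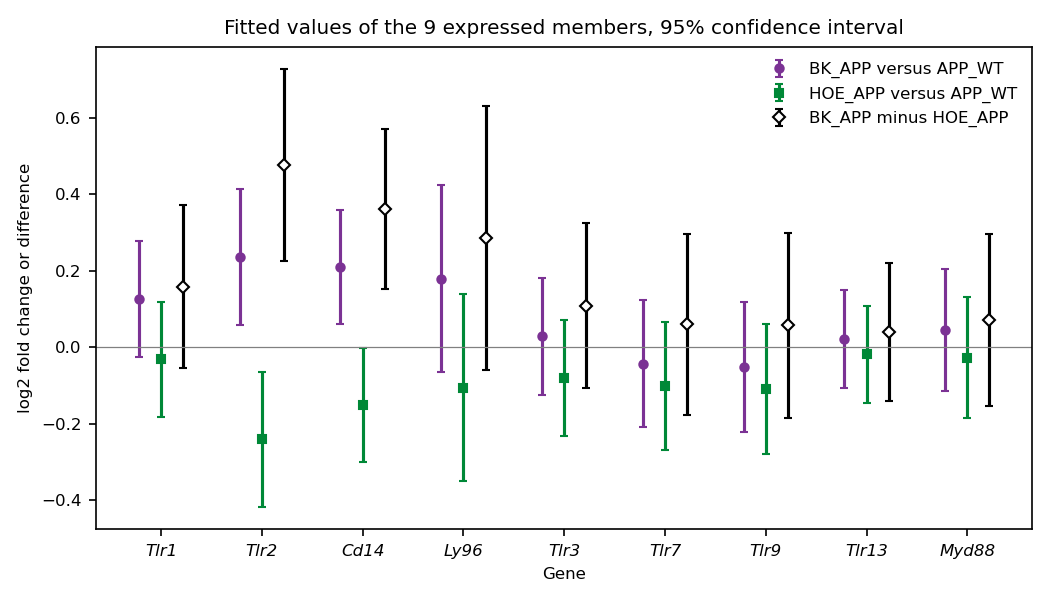
Fitted log2 fold change of each expressed member in BK_APP versus APP_WT and HOE_APP versus APP_WT, and their difference, with 95% confidence intervals from the limma model (vertical axis, log2). The intervals of Tlr2 and Cd14 lie above 0 for BK_APP and for the difference and below 0 for HOE_APP before any adjustment, and all other intervals cross 0.

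Surface and endosomal receptors were set against each other array by array. In APP_WT versus WT the median over Tlr1, Tlr2 and Tlr4 was 0.19, 0.35, 0.05 and 0.41, and that over Tlr3, Tlr7, Tlr9 and Tlr13 was −0.02, 0.02, 0.33 and 0.20. The surface median was the higher on 3 of the 4 arrays and the lower on array 3. It is the value of Tlr1 or Tlr4, the dim members, on each of these arrays, and the surface mean, which Tlr2 enters, was 0.76, 0.85, 0.61 and 0.97 against 0.02, −0.0010, 0.34 and 0.20 for the endosomal mean. After bradykinin the surface median was 0.18, 0.21, 0.10 and 0.02 and the endosomal median 0.07, −0.01, −0.11 and −0.08, with the surface higher on all 4 arrays by 0.10 to 0.22, although the surface mean was the lower on array 1 (0.09 against 0.12). After HOE-140 the surface median was 0.15, −0.01, 0.05 and −0.15 and the endosomal median 0.06, 0.04, −0.22 and −0.16, with the surface higher on arrays 1, 3 and 4 (on array 4 by 0.0051) and lower on array 2, an order that turns on every array with the sign turned. In each comparison the endosomal median was lower on both arrays with the first-named sample in Cy3 than on those with it in Cy5. Over the fitted values the surface median was that of Tlr1 in all 3 comparisons, a probe near background whose detection went with the dye, with Tlr4 not expressed. These surface and endosomal medians were 0.19 and 0.10 in APP_WT versus WT, 0.13 and −0.01 in BK_APP, and −0.03 and −0.09 in HOE_APP, and no test was made over so few genes.

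**Figure D4:**
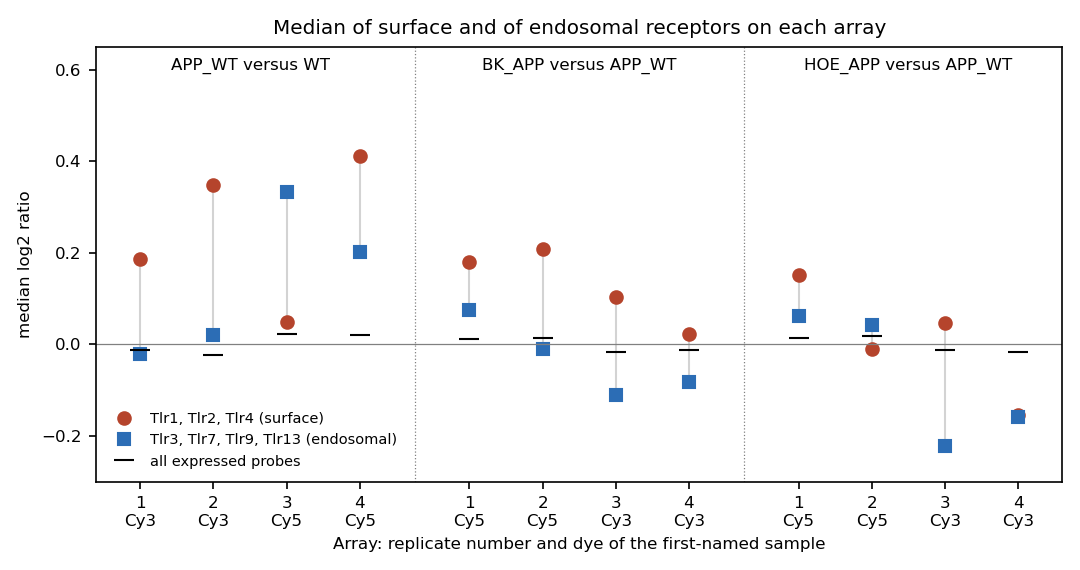
Median log2 ratio (vertical axis) of the surface receptors, of the endosomal receptors and of all expressed probes on each array, labelled by replicate number and by the dye of the first-named sample. The surface median is above the endosomal one on 3 of 4 arrays in APP_WT versus WT and on all 4 in BK_APP versus APP_WT.

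Channel levels gave the order of the 4 conditions for each gene. They were computed over arrays of both slides, and WT was measured on 1 slide only. Each n below counts channels. The paper names 4 independent biological replicates per model, so the 12 APP_WT channels are not 12 independent samples. Groups are called apart from the spread of channels alone, without the pairing within arrays, as a description and not a test. The log2 level of Tlr2 was 8.93 ± 0.06 (SD, n = 4) in BK_APP, 8.70 ± 0.18 (SD, n = 12) in APP_WT, 8.52 ± 0.14 (SD, n = 4) in HOE_APP and 6.62 ± 0.18 (SD, n = 4) in WT. BK_APP and APP_WT were apart by more than the larger SD, as were HOE_APP and WT, while APP_WT and HOE_APP were not. Cd14 had the same order, with 8.10 ± 0.05, 7.90 ± 0.17, 7.82 ± 0.16 and 6.72 ± 0.26 (SD, the same n), and the same neighbours apart. If the channels of the HOE_APP arrays are exchanged, as the doubt about their direction allows, the Tlr2 level is 8.76 ± 0.17 (SD, n = 4) in HOE_APP and 8.62 ± 0.18 (SD, n = 12) in APP_WT, so that HOE_APP moves above APP_WT, and for Cd14 the levels are 7.97 and 7.85 with the same turn. Ly96 and Tlr3 also had this order, but of the neighbours only HOE_APP and WT were apart by more than the larger SD. With the channels exchanged HOE_APP is the highest group for Ly96 (7.60) and lies between BK_APP and APP_WT for Tlr3 (7.34). Myd88 had its highest mean in HOE_APP (8.28 ± 0.07) and its lowest in WT (7.76 ± 0.11), and the 3 transgenic groups were not apart, also with the channels exchanged (8.31 in HOE_APP). For Tlr7 no neighbours in the order were apart, with means from 8.42 in HOE_APP to 8.87 in BK_APP, and the same held for Tlr9 (9.98 in HOE_APP to 10.10 in APP_WT) and Tlr13 (8.61 in WT to 8.76 in BK_APP). With the channels exchanged no neighbours were apart for these 3 genes, while the order itself changed for Tlr9, with WT highest, and for Tlr13, with HOE_APP highest.

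**Figure D5:**
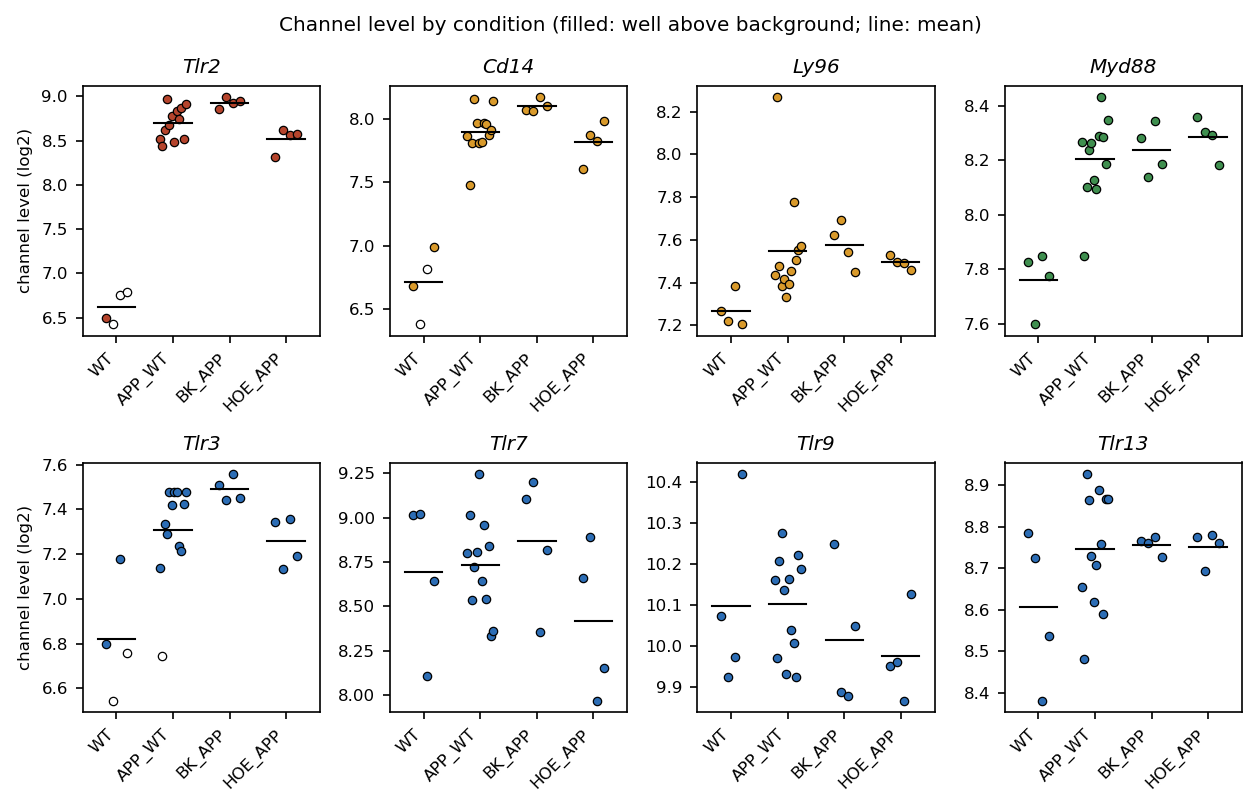
Log2 channel level (vertical axes, scaled separately) of 8 members in WT (4 channels), APP_WT (12), BK_APP (4) and HOE_APP (4), with filled points well above background and the mean as a line. The WT points of Tlr2 and Cd14 lie below every point of the other conditions, and those of Tlr7, Tlr9 and Tlr13 overlap them.

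The genes whose 12 log2 ratios most resembled those of each member were taken among 14142 named expressed genes by Pearson's r, as a description over arrays that share comparison, dye and slide. For Tlr2 they were Tgfbi, Rtp4 and H2-K1, with r of 0.996, 0.996 and 0.995, and for Cd14 they were Tgfbi, H2-K1 and Cntf, with r of 0.988, 0.986 and 0.983. For Tlr3 the interferon-induced gene Ifit2 came first (0.958), followed by Pstpip1 and Chil1. For Myd88 they were Thbs2, Tspo and Morn2 (0.966 to 0.952), and for Ly96 Aqp5, Tnni1 and Smoc2 (0.937 to 0.923). Tlr7 (Pdzrn3, Lrrc8b and Ctdsp1), Tlr9 (Gm9920, Dcaf12l2 and Timmdc1), Tlr13 (Dlg3, Ift57 and Cbwd1) and Tlr1 (Nuf2, Mobp and Prss23) had none of these genes in common with each other or with the rest.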

How the data were processed

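Gene expression was measured on 12 2-color Agilent SurePrint G3 mouse arrays, 4 per comparison, and samples were grouped by their titles. The authors deposited, per array, the output of the scanner software (the headers name Feature Extraction 11.0.1.1; the paper's methods name another version), with median intensity of spot and local background per channel, flag columns (uneven spot, saturation, signal over background) and a log10 ratio of processed red to green. A table of log2 ratios was deposited as well, had the sign used here and served as an alternative. No column was left unused.

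Median intensities were background-corrected by normexp (offset 50), log2 ratios were normalized within arrays by loess (span 0.3) in limma 3.58.1 (R 4.3.3), control spots (3671 of 62976) and uneven spots were left out, and spots of a probe were averaged. Normexp with an offset pulls ratios of dim probes towards 0. All ratios were oriented as the first-named over the second-named condition. Channel levels were taken after quantile scaling of average intensities. No member spot was saturated (0). The number of arrays limits the precision.

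One limma model over the 12 arrays estimated, per comparison, a mean and a dye effect (6 residual and 4.56 prior degrees of freedom). Tests were two-sided with Benjamini-Hochberg adjustment over 29361 expressed probes and a threshold of 0.05. SAM and rank products, which the methods of the study name, were programmed anew (16 sign flips; 100 permutations), with both at an unadjusted p of 0.05 or lower. Genes were named through RefSeq tables (GRCm38.p6), where 27509 of 29150 RefSeq probes matched, and represented by the brightest expressed probe.

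Members, pathway genes and cell markers were chosen with earlier results of these data known. The text names all members, pathway genes that were called or had the largest or smallest value of their role, and the 3 genes most like each member. Replicate numbers paired arrays of BK_APP and HOE_APP, whose deviations from the comparison mean correlated between 0.52 and 0.67 for equal numbers, and between 0.42 and 0.43 within a dye orientation. Those of APP_WT versus WT correlated with both between −0.60 and −0.30 for equal numbers, and between −0.51 and −0.20 within a dye orientation. Opposite dye orientations correlated between −0.32 and −0.11 in BK_APP and −0.32 and −0.19 in HOE_APP. The scripts' tests were checked on simulated data.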

Additional observations from a re-analysis of the deposited data

Results flagged for a closer look

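Ly96 in APP_WT versus WT had a log2 ratio of 1.05 on array 2, far from the 0.10 to 0.18 of the other three arrays, with a gap to the nearest of 0.914 of the whole range, past Dixon's limit for 4 samples. Chance alone passes that limit in about 1 of 20 groups, and 30 groups were examined. The intensity of Ly96 in the APP_WT channel of that array was the highest of the 12 APP_WT channels (log2 level 8.27), and its WT channel (7.22) lay among the other WT values. A cause was not tested.

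Cd14 moved in opposite directions under the treatments, above 0 on all 4 arrays in BK_APP versus APP_WT and below 0 on all 4 in HOE_APP versus APP_WT. The difference of 0.36 had an unadjusted p of 0.00316 and did not pass adjustment over all probes in the limma model, and it was 0.06 when the HOE_APP ratios were given the opposite sign.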

How the results depend on the processing

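Of the values of single members under the alternatives 553 kept their direction and their side of the threshold, 42 changed sign, 13 lost and 3 gained a call. The 42 include those of the alternative with the HOE_APP sign turned, which changes the sign of every tested HOE_APP value by construction. Tlr2 and Cd14 kept their calls in APP_WT versus WT wherever tested, and were left untested when a probe had to be well above background in both channels on all 4 arrays, which left 2 members called (Ly96 and Myd88). The Ly96 call ended with plain background subtraction (0.50, adjusted p = 0.0559), the scanner software's log ratio (0.37, adjusted p = 0.133), the deposited log2 table (0.37, adjusted p = 0.129), no filter on dim probes (adjusted p = 0.0770), no dye coefficient (adjusted p = 0.0609) and a separate fit of each comparison (adjusted p = 0.177). The separate fit also ended that of Tlr3 (adjusted p = 0.0823), and called 2371 probes, 3 members and 18 pathway genes. The scanner log ratio ended the call of Myd88 (0.30, adjusted p = 0.0827) and called Tlr1 (1.04, adjusted p = 0.0250). SAM and rank products called 3529 probes in APP_WT versus WT, 535 in BK_APP (3 members, 2 pathway genes) and 676 in HOE_APP (1 member, 1 pathway gene).

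Directions of values near 0 turned. Plain subtraction put Tlr1 in HOE_APP at 0.011 and the surface medians at 0.56 in APP_WT and 0.27 in BK_APP. The scanner log ratio gave surface medians of 1.04, 0.29 and 0.18 in the 3 comparisons, Tlr1 in HOE_APP at 0.43, and in APP_WT Tlr7 at −0.052 and Tlr13 at −0.0061, and the deposited table gave 0.43, −0.052 and −0.006. Median centering, which moved the median of all expressed probes to −0.07, 0.04 and 0.08, gave −0.025 for Tlr7 and −0.055 for Tlr9 in APP_WT, 0.022 and 0.0098 in BK_APP, and in HOE_APP 0.0047 for Tlr7, 0.058 for Tlr13 and 0.046 for Myd88. With the HOE_APP sign turned, Tlr1 was 0.032, Tlr2 0.24, Tlr3 0.081, Tlr7 0.10, Tlr9 0.11, Tlr13 0.019, Cd14 0.15, Ly96 0.11, Myd88 0.028 and the endosomal median 0.091, and BK_APP minus HOE_APP was −0.0064 for Tlr2, −0.053 for Tlr3, −0.15 for Tlr7 and −0.16 for Tlr9. The causes were not tested.

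A replicate block within dye orientation, with the same sign throughout, left 4170 probes and 5 members called in APP_WT versus WT and changed no call of a member. With the sign of the block turned for that comparison, chosen after seeing the data, 8265 probes were called there and 3 in HOE_APP, Tlr1 passed (adjusted p = 0.0357), and BK_APP minus HOE_APP had an adjusted p of 0.274 for Tlr2 and 0.413 for Cd14.

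Leaving out 1 array at a time gave 3772 to 5550 probes and 2 to 6 members called in APP_WT versus WT, 0 to 62 probes in BK_APP and 0 to 9 in HOE_APP. In APP_WT versus WT Tlr7 ranged from −0.015 to 0.16 and Tlr9 from −0.038 to 0.15. In BK_APP Tlr7 ranged from −0.13 to 0.044, Tlr9 from −0.13 to 0.022, Tlr13 from −0.037 to 0.078 and Myd88 from −0.045 to 0.13. In HOE_APP Tlr1 ranged from −0.10 to 0.040, Tlr13 from −0.040 to 0.0024 and Myd88 from −0.096 to 0.041. In BK_APP minus HOE_APP Tlr7 ranged from −0.028 to 0.15, Tlr9 from −0.018 to 0.13, Tlr13 from −0.018 to 0.097 and Myd88 from −0.017 to 0.16. Low signal over background limits Tlr1, Tlr4 and the WT values of Tlr2, Cd14 and Tlr3.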
